A study of Homo sapiens with 16 samples.

Results

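YAP1, its paralog WWTR1 (the gene of TAZ), the TEAD1, TEAD2, TEAD3 and TEAD4 transcription factors and the vestigial-like genes VGLL3 and VGLL4 were measured as RNA in SW480, a cell line established from a colon adenocarcinoma, and in 5 lines derived from it. These 8 genes were chosen by their symbols, and all 8 were found among the 66023 genes of the count table. Parental (n = 2) was SW480 without a construct. The 5 other lines were stable lentiviral lines selected with puromycin. ShScrambled (n = 2) carried a hairpin without a target, shAjuba1 (n = 3) a hairpin against the coding region of Ajuba, and shAjuba2 (n = 3) one against a non-coding region. Ajuba OE (n = 3) expressed Ajuba with a FLAG-HA tag from a CMV promoter, and its Control (n = 3) held the same construct with the exogenous Ajuba cut out. The study asked how the level of Ajuba, a LIM domain protein, changes the transcriptome of a colon cancer cell. The paper calls the replicates technical, so p-values measure only the spread between these samples.

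YAP and TAZ are coactivators that cannot bind DNA themselves. In the nucleus they bind TEAD factors and turn on genes for growth and the matrix, whereas phosphorylation by the LATS kinases of the Hippo pathway holds them in the cytoplasm or marks them for degradation. Vestigial-like proteins bind the same TEAD factors, and VGLL4 competes with YAP for them. In the gut epithelium YAP is known for its part in regeneration and in tumors, and LIM proteins of the Ajuba family bind LATS kinases. The data are RNA levels, and the amount, phosphorylation and location of the YAP and TAZ proteins were not analysed here.

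The mean YAP1 level of the 6 lines differed by at most 1.17-fold, and the TEAD genes by more. TEAD1 had its lowest level in shAjuba1 and its highest in shScrambled, and TEAD4 was highest in shAjuba1. WWTR1 was high in shAjuba1 and in 2 of the 3 Ajuba OE samples. In a test of any difference among the 6 lines (edgeR's quasi-likelihood F test over all 16 samples), 7 of the 8 genes passed an adjusted p under 0.05, as did 45.7% of the 23597 genes tested. YAP1 was the one that did not pass (adjusted p = 0.239). The adjusted p was 3.58e-05 for TEAD1, 0.000168 for TEAD4, 0.00161 for TEAD3, 0.00456 for WWTR1, 0.00592 for TEAD2, 0.00666 for VGLL4 and 0.012 for VGLL3. VGLL3 missed the threshold without Parental replicate 2 (adjusted p = 0.0569), and VGLL4 missed it with every gene of at least 1 count tested (adjusted p = 0.0633).

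The members lie at 8 places of hg38. YAP1 (ENSG00000137693) is at chr11:102110447-102233424 on the plus strand, with 11 exons when overlapping exons of its transcripts are merged. WWTR1 (ENSG00000018408) is at chr3:149517235-149736714 on the minus strand with 19 merged exons. TEAD1 (ENSG00000187079) is at chr11:12674421-12944737 on the plus strand with 15, and TEAD4 (ENSG00000197905) at chr12:2959330-3040676 on the plus strand with 14. TEAD2 (ENSG00000074219) is at chr19:49340595-49362457 and TEAD3 (ENSG00000007866) at chr6:35473597-35497079, both on the minus strand. VGLL3 (ENSG00000206538) is at chr3:86876388-86991149 and VGLL4 (ENSG00000144560) at chr3:11556069-11771350, also on the minus strand.

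The TEAD genes are close paralogs, so reads could be assigned to the wrong one. The longest coding transcripts of the members were cut into all windows of 50 bases, the read length. TEAD3 and TEAD4 shared 7 windows, out of 2937 and 1661, and no other member shared any window with another. These windows form 1 run of 56 coding bases that crosses from exon 12 to exon 13 in both genes. It is shown with the closest stretch of TEAD1 and TEAD2, because in these transcripts it is the only stretch where a single read of this length could not tell 2 of the members apart. Capitals mark bases that differ from the TEAD3 and TEAD4 run.
TEAD3: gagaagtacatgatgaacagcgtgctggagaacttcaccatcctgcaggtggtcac
TEAD4: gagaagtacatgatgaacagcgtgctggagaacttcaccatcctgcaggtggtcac
TEAD1: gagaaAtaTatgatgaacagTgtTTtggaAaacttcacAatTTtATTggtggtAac
TEAD2: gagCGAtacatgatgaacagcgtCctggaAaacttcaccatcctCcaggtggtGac
The TEAD3 run lies at chr6:35475336-35475383 and chr6:35475150-35475157 of hg38 on the minus strand. The TEAD4 run lies at chr12:3040212-3040259 and chr12:3040365-3040372 on the plus strand. The TEAD1 stretch, at chr11:12930279-12930326 and chr11:12937109-12937116 (exons 12 and 13), differed from the run at 13 of 56 bases (76.8% identity). The TEAD2 stretch, at chr19:49342438-49342485 and chr19:49341430-49341437 (exons 10 and 11), differed at 7 (87.5% identity).

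Of the promoters, 250 bases before a start site were searched for GGAATG on either strand (CATTCC on the other), the core of the site that TEAD factors are known to bind. RefSeq start sites of GRCh38.p14 were matched for 6 of the 8 members, and none for TEAD1 and TEAD4. VGLL4, WWTR1 and TEAD2 had more than 1 window each. Of all 35116 windows of this length 11.9% held the motif. Among the members' windows only that of YAP1 did, 162 bases before the start, in capitals below. The window ends 1 base before the YAP1 gene, and 1 annotated exon overlaps it. A match is a description of letters and says nothing of binding.
YAP1 promoter window (chr11:102110197-102110446, plus strand): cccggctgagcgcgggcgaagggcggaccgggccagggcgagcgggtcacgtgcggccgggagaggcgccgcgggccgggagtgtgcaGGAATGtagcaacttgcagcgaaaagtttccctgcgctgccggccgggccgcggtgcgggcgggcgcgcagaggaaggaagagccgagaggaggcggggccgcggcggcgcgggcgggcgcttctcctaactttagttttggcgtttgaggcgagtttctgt

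The samples held 30132396 to 69684675 counted read pairs, of which mitochondrial genes took 9.66% to 21.2%. The highest mitochondrial shares were in replicate 2 of shAjuba2, of Ajuba OE and of Control. Summed colon epithelial markers were at 2901 to 7008 RPM, with KRT8 at 1487 to 3165 and KRT18 at 1152 to 2847. CDH1 was at 3.92 to 36.2 RPM, CDX2 at 7.40 to 26.8 and VIL1 at 8.88 to 59.1. CDX1 reached at most 0.0837 RPM and was at 0 in 7 samples. Summed fibroblast markers were at 5.76 to 26.8 RPM (COL1A1 at 5.71 to 26.4) and endothelial markers at 2.24 to 5.39 (VWF at 1.89 to 5.29). Blood markers summed to at most 0.603 RPM. RPM is a gene's share of all counts in a sample, scaled alike in every sample. AJUBA was between 47.3 and 53.5 RPM in shAjuba1 and between 57.1 and 68.6 RPM in shAjuba2, below both shScrambled samples (81.6 and 83.4 RPM). It was between 461.8 and 566.2 RPM in Ajuba OE and between 89.4 and 100.5 RPM in Control. Against its control the log2 fold change of AJUBA was -0.73 in shAjuba1 (adjusted p = 2.19e-05), -0.46 in shAjuba2 (adjusted p = 0.0773, not past the threshold) and 2.56 in Ajuba OE (adjusted p = 7.69e-05). In bulk RNA, fewer cells with a transcript and less of it per cell cannot be told apart.

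Per kb of merged exons, the scale on which genes can be compared, YAP1 and TEAD1 were the most abundant members. The mean over the 16 samples was 54.9 RPM per kb for YAP1 and 52.3 for TEAD1. It was 23.1 for TEAD4, 11.5 for TEAD2, 8.26 for WWTR1, 6.42 for TEAD3 and 4.26 for VGLL4. VGLL3 was close to the limit of detection at 0.0186 RPM per kb. With the length of the longest coding transcript in place of merged exons, TEAD3 and VGLL4 changed places (6.55 and 8.12 RPM per kb) and the other ranks stayed. VGLL1 and VGLL2, the vestigial-like genes outside the 8, had 1 and 3 counts in all 16 samples together. At this depth 3 counts are worth 0.0431 to 0.0996 RPM.

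**Figure D1:**
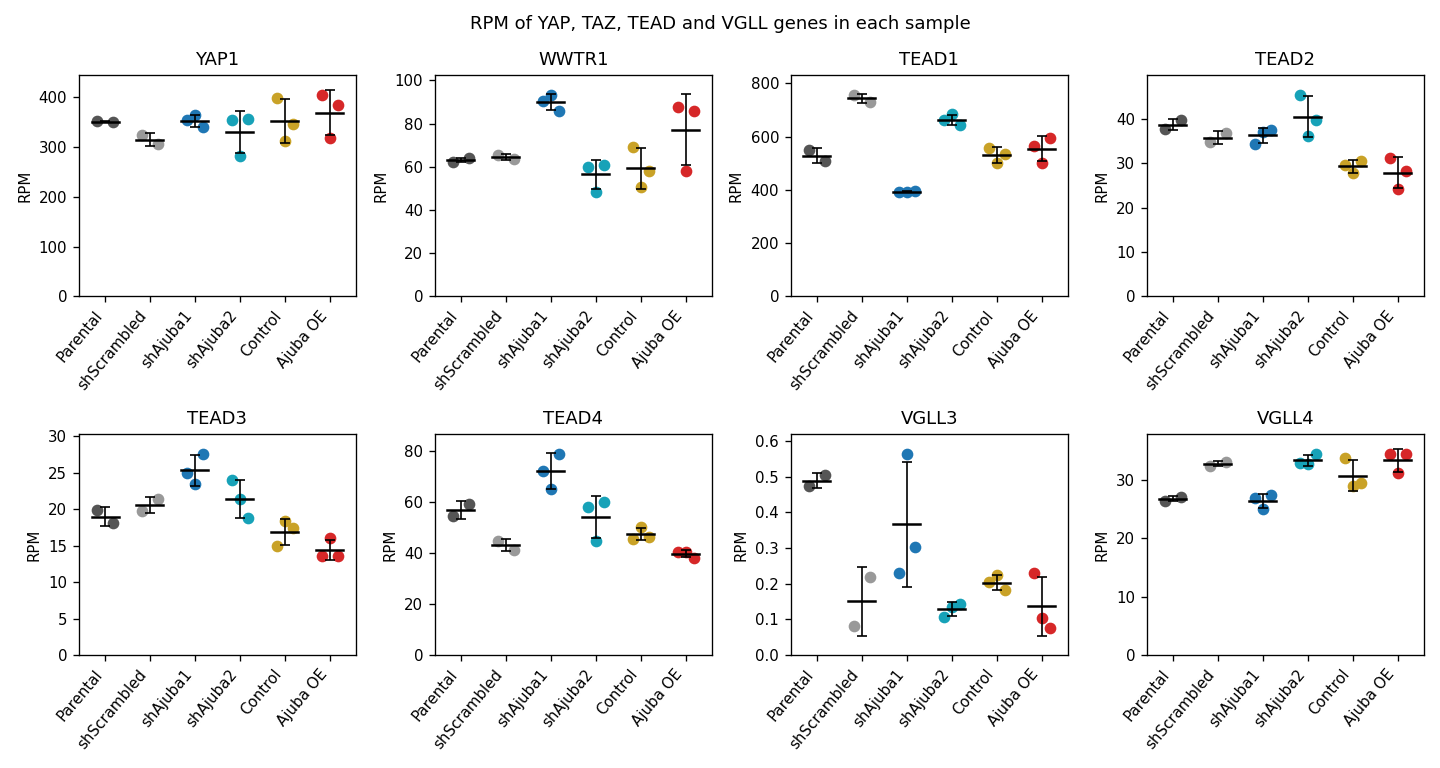
RPM (y axes, from 0, a separate scale for each gene) of the 8 genes in each sample, by line. Points are samples, horizontal lines are means and error bars are SD (n = 2 or 3). TEAD1 is lowest and TEAD4 highest in shAjuba1, and the YAP1 means lie between 315.1 and 369.4 RPM in all 6 lines.

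YAP1 had overlapping levels in most lines. Parental was at 351.4 and 350.1 RPM, shScrambled at 324.9 and 305.4, and shAjuba1 at 353.6, 364.8 and 339.8. ShAjuba2 was at 354.9, 282.0 and 356.0 RPM, Control at 398.3, 311.2 and 346.5, and Ajuba OE at 404.7, 318.3 and 385.2. The lowest sample was shAjuba2 replicate 2 and the highest Ajuba OE replicate 1, a ratio of 1.44. The line means ran from 315.1 RPM in shScrambled to 369.4 in Ajuba OE, and every line overlapped its neighbour in that order. Of the 15 pairs of lines, 2 had sample ranges that did not overlap, 4 with TMM-scaled CPM and 5 without mitochondrial counts in the totals. Such pairs were counted for the members only and not over all genes.

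WWTR1 stood higher in shAjuba1 than in its control. The shAjuba1 samples were at 90.6, 93.2 and 85.9 RPM, against 65.6 and 63.6 in shScrambled and 62.3 and 63.8 in Parental. ShAjuba2 was at 59.9, 48.5 and 60.9 RPM. All shAjuba1 samples lay above all samples of these 3 lines, and all shAjuba2 samples lay below both controls. Control was at 69.3, 50.5 and 58.0 RPM and Ajuba OE at 87.6, 58.1 and 85.7. Replicates 1 and 3 of Ajuba OE were above every Control sample and close to the shAjuba1 samples, whereas replicate 2 lay within the Control range. Genes on the opposite strand that share exon bases with WWTR1 (WWTR1-AS1, 756 bp) held 0.867% of its count. The order of means was shAjuba1 (89.9 ± 3.71 RPM, SD, n = 3), Ajuba OE (77.2 ± 16.5), shScrambled (64.6 ± 1.41, n = 2), Parental (63.1 ± 1.09, n = 2), Control (59.3 ± 9.48) and shAjuba2 (56.4 ± 6.91), and each line overlapped the next.

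For TEAD1 the highest line mean was 1.89 times the lowest. ShScrambled was at 756.1 and 729.9 RPM, shAjuba2 at 661.2, 682.8 and 642.9, and shAjuba1 at 392.5, 392.1 and 396.1. Parental was at 547.6 and 507.7 RPM, Control at 558.2, 499.5 and 533.4, and Ajuba OE at 563.8, 502.2 and 596.2. In RPM shScrambled, shAjuba2 and shAjuba1 each stood clear of their neighbours, whereas Ajuba OE, Control and Parental overlapped. In TMM-scaled CPM shAjuba2 and Ajuba OE overlapped, with Ajuba OE replicate 3 (626.5) above shAjuba2 replicates 1 (626.1) and 3 (615.2). The mean of shAjuba1 (393.6 ± 2.19 RPM, SD, n = 3) was below that of Parental (527.7 ± 28.2, n = 2), and shScrambled (743.0 ± 18.5, n = 2) was above it. ShAjuba2 (662.3 ± 19.99, n = 3) lay between Parental and shScrambled, and shAjuba1 did not.

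TEAD4 was highest in shAjuba1 and lowest in Ajuba OE, with the highest line mean 1.81 times the lowest. ShAjuba1 was at 72.4, 65.1 and 79.1 RPM, above Parental at 54.6 and 59.4 and shScrambled at 44.8 and 41.4. ShAjuba2 was at 58.2, 45.0 and 59.9 RPM, Control at 45.7, 50.4 and 46.5, and Ajuba OE at 40.6, 40.6 and 38.3. In RPM all 3 shAjuba1 samples were the highest of the series and all 3 Ajuba OE samples the lowest. In TMM-scaled CPM, and also without mitochondrial counts in the totals, shAjuba1 stayed highest, but Ajuba OE replicate 2 (43.3 and 51.5) lay above shScrambled replicate 2 (41.1 and 50.1). Of the 15 pairs of lines 13 in RPM did not overlap, more than for any other member. Without mitochondrial counts in the totals this number was 10, below TEAD1 with 14 and TEAD2 with 11. The number for other genes was not counted, so these values only rank the members.

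TEAD2 and TEAD3 had their lowest means in Control and Ajuba OE. TEAD2 was between 24.2 and 31.2 RPM in Control and Ajuba OE and between 34.4 and 45.4 RPM in the others, with no overlap. TEAD3 was between 13.6 and 18.3 RPM in that pair and between 18.1 and 27.6 RPM in the others, where Parental replicate 2 (18.1 RPM) lay within the range of Control. Within the hairpin lines TEAD3 was highest in shAjuba1, at 24.9, 23.4 and 27.6 RPM, against 19.8 and 21.4 in shScrambled. It was 24.0, 21.4 and 18.8 RPM in shAjuba2, which overlapped both of those lines. CD37 exons overlap those of TEAD2 by 319 bp on the opposite strand, and the CD37 count over all samples was 27.4% of that of TEAD2. The strand option of the counting is not given in the sources used here, and the part of CD37 in the TEAD2 values was not tested.

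VGLL4, the TEAD partner that competes with YAP, was at 26.5 and 27.1 RPM in Parental and at 26.9, 25.0 and 27.4 in shAjuba1. It was at 32.4 and 33.1 RPM in shScrambled, and at 32.8, 32.7 and 34.5 in shAjuba2. Control was at 33.8, 28.9 and 29.5 RPM and Ajuba OE at 34.4, 31.1 and 34.5. Parental and shAjuba1 thus overlapped and lay below every sample of the other 4 lines. ATG7 on the opposite strand shares 1597 bp of exons with VGLL4, and its count was 60.7% of that of VGLL4. Its part in the VGLL4 values was not tested. VGLL3 counts were 19 and 27 in Parental, 3 and 11 in shScrambled, 11, 17 and 11 in shAjuba1, and 5, 6 and 7 in shAjuba2. Control had 7, 11 and 8 counts and Ajuba OE 16, 5 and 3. At so few counts VGLL3 is limited by counting error, and its level ranged only from 0.0754 to 0.564 RPM.

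Differences between 2 lines were tested with edgeR's quasi-likelihood test on the counts, scaled by TMM factors, over all genes that passed a filter on low counts. Genes with a Benjamini-Hochberg adjusted p under 0.05 are called DEG. In shAjuba1 against shScrambled 5 of the 8 members were DEG, beside 38.4% of all 21082 genes tested. Of these 3 were higher (18.2% of all genes) and 2 lower (20.2% of all genes). WWTR1 rose by 0.46 on the log2 scale (standard error 0.0840, adjusted p = 0.000888), TEAD4 by 0.73 (standard error 0.0969, adjusted p = 7.99e-05) and TEAD3 by 0.28 (standard error 0.100, adjusted p = 0.0402). TEAD1 fell by 0.93 (standard error 0.0803, adjusted p = 2.11e-06) and VGLL4 by 0.32 (standard error 0.0890, adjusted p = 0.0119). By p TEAD1 ranked 411 and TEAD4 1335 among the genes tested. YAP1 (log2 fold change 0.15, adjusted p = 0.187), TEAD2 (0.00, adjusted p = 0.971) and VGLL3 (1.09, adjusted p = 0.127) did not pass.

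The call of TEAD3 was lost without shScrambled replicate 1 (adjusted p = 0.233), without shScrambled replicate 2 (0.119) without shAjuba1 replicate 1 (0.0959) and with all 16 samples in 1 fit (0.111). That of VGLL4 was lost without shScrambled replicate 1 (0.0975) or 2 (0.0953), and YAP1 passed without shAjuba1 replicate 3 (log2 fold change 0.18, adjusted p = 0.0442). Leaving out either shScrambled sample left 3 members called, WWTR1, TEAD1 and TEAD4, beside 20.8% of all genes without replicate 1 and 23% without replicate 2. Leaving out shAjuba1 replicate 3 gave 6 of the 7 then tested, beside 45.4% of all genes. The calls of WWTR1, TEAD1 and TEAD4 held under all 12 alternatives tried.

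With Parental in place of shScrambled, 4 members were DEG in shAjuba1, beside 38.1% of all genes. WWTR1 rose by 0.48 (adjusted p = 0.000777), TEAD3 by 0.39 (adjusted p = 0.0102) and TEAD4 by 0.31 (adjusted p = 0.0221), and TEAD1 fell by 0.45 (adjusted p = 0.000652). The sizes for TEAD1 and TEAD4 were thus under those against shScrambled, and VGLL4 did not pass (log2 fold change -0.05, adjusted p = 0.694).

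ShScrambled itself differed from Parental in 4 of the 8 members, beside 30.7% of all genes tested, with 2 higher (15% of all genes) and 2 lower (15.6%). TEAD1 was 0.49 higher on the log2 scale (standard error 0.0813, adjusted p = 6.93e-05) and VGLL4 0.28 higher (standard error 0.0838, adjusted p = 0.0121). TEAD4 fell by 0.41 (standard error 0.0806, adjusted p = 0.00042) and VGLL3 by 1.60 (standard error 0.449, adjusted p = 0.0087). The VGLL4 call was lost without any 1 of the 4 samples (adjusted p 0.0534 to 0.107) and in DESeq2's test (0.0551), where YAP1 passed (log2 fold change -0.19, adjusted p = 0.0483). With all 16 samples in 1 fit TEAD1 alone was called, beside 7.19% of all genes, and TEAD4 missed the threshold (adjusted p = 0.051). For VGLL3 the call was lost without Parental replicate 2 (adjusted p = 0.0756) or shScrambled replicate 1 (0.109), and without shScrambled replicate 2 its log2 fold change was -2.54. Control against Parental had 0 of 8 members called by edgeR's and by DESeq2's test, beside 0.37% of all genes in edgeR's. TEAD2 (log2 fold change -0.39, adjusted p = 0.144), VGLL3 (-1.24, adjusted p = 0.13) and TEAD4 (-0.25, adjusted p = 0.252) had an unadjusted p under 0.05, as did 4219 of all 21644 genes. TEAD2 passed without Control replicate 2 (-0.37, adjusted p = 0.0423).

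In shAjuba2 against shScrambled none of the 7 members tested was a DEG in edgeR's or DESeq2's test, beside 7.63% of all genes in edgeR's. VGLL3 did not pass the filter on low counts. The log2 fold change was 0.29 for TEAD4 (standard error 0.146, adjusted p = 0.26), -0.25 for WWTR1 (standard error 0.130, adjusted p = 0.276) and -0.21 for TEAD1 (standard error 0.131, adjusted p = 0.345). None of the 7 had an unadjusted p under 0.05, beside 5882 of all 22446 genes. The log2 fold changes of YAP1, TEAD2, TEAD3 and VGLL4 lay between -0.02 and 0.13. Without shAjuba2 replicate 2, TEAD4 passed at 0.39 (adjusted p = 0.0074). Against Parental the TEAD1 value was 0.27 (adjusted p = 0.205) and that of TEAD4 -0.13 (adjusted p = 0.554), the opposite sign for both, and VGLL3 fell by 1.96 (adjusted p = 0.0226).

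The 2 hairpin lines share the shScrambled samples, so they were also compared with each other. Here 4 of the 8 members were DEG, beside 19.6% of all genes, 3 higher in shAjuba1 (9.47% of all genes) and 1 lower (10.1%). In shAjuba1 WWTR1 was 0.72 higher on the log2 scale (standard error 0.117, adjusted p = 0.00263), TEAD4 0.46 higher (standard error 0.131, adjusted p = 0.0358) and VGLL3 1.47 higher (standard error 0.437, adjusted p = 0.0422). TEAD1 fell by 0.70 (standard error 0.114, adjusted p = 0.00265). The TEAD4 call was lost without any 1 shAjuba1 sample or without shAjuba2 replicate 1 (adjusted p 0.0638 to 0.124). The VGLL3 call was lost without shAjuba1 replicates 2 or 3 or without shAjuba2 replicates 1 or 3 (adjusted p 0.0642 to 0.158). The VGLL3 call was also lost in DESeq2's test (adjusted p = 0.0805). VGLL4 passed without shAjuba2 replicate 2 (log2 fold change -0.29, adjusted p = 0.0451) and with all 16 samples in 1 fit (-0.30, adjusted p = 0.0181). Leaving out 1 sample gave 2 to 5 members called, beside 9.83% to 26.9% of all genes. There were 2 calls without shAjuba1 replicate 2 (10.8% of all genes), shAjuba1 replicate 3 (10.9%) or shAjuba2 replicate 1 (11.8%).

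**Figure D2:**
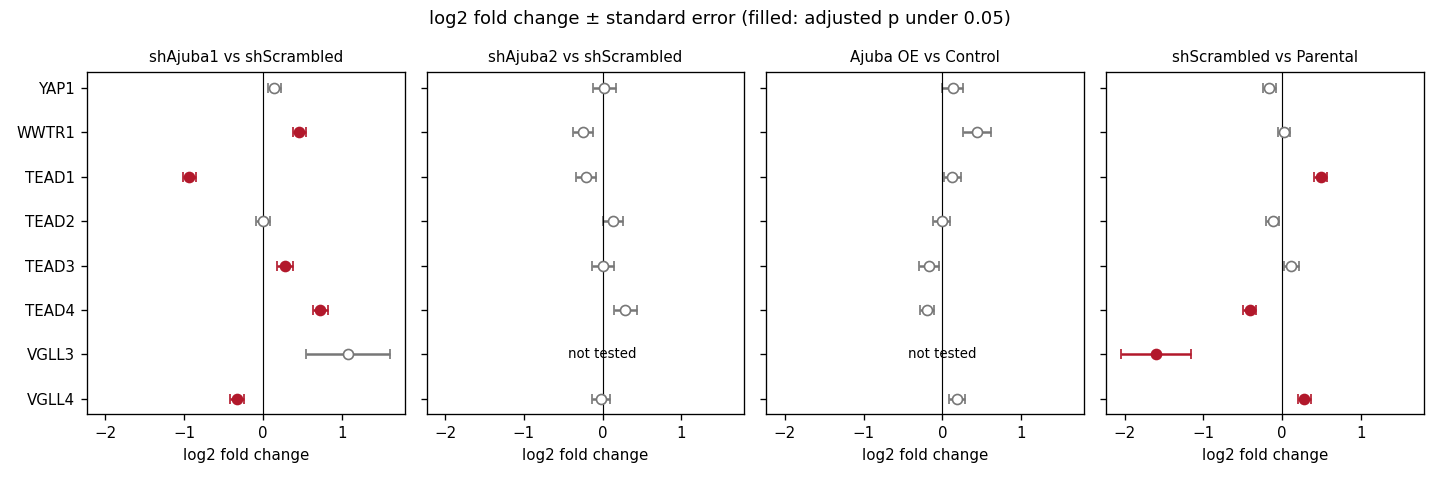
log2 fold change (x axes) of each gene (y axis) in 4 comparisons of edgeR's test. Bars are standard errors, filled points have an adjusted p under 0.05, and "not tested" marks genes below the filter on low counts. ShAjuba1 against shScrambled has 5 filled points (beside 38.4% of all genes tested) and shScrambled against Parental 4 (beside 30.7%). ShAjuba2 against shScrambled and Ajuba OE against Control have none, beside 7.63% and 5.43% of all genes.

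In Ajuba OE against Control none of the 7 members tested was a DEG in edgeR's or DESeq2's test, beside 5.43% of all genes in edgeR's. WWTR1 had a log2 fold change of 0.44 (standard error 0.178, unadjusted p = 0.0399 and adjusted p = 0.238 in edgeR's test). No other member had an unadjusted p under 0.05, beside 3928 of all 21140 genes that did. TEAD4 was at -0.19 (standard error 0.0897, adjusted p = 0.317), with all 3 Ajuba OE samples below all 3 Control samples. VGLL4 was at 0.18 (adjusted p = 0.412), TEAD3 at -0.17 (adjusted p = 0.572), YAP1 at 0.13 (adjusted p = 0.671), TEAD1 at 0.13 (adjusted p = 0.611) and TEAD2 at -0.01 (adjusted p = 0.982). With replicates 1 and 3 of both lines only, an alternative chosen after seeing the data, WWTR1 passed with 0.49 (adjusted p = 0.0265) and was the only member called, beside 8.18% of all genes. Against Parental, TEAD4 fell by 0.47 (adjusted p = 0.0328).

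YAP1 and WWTR1 were lowest in replicate 2 within shAjuba2, Control and Ajuba OE. The mitochondrial share of those 3 samples was 21.2%, 18.5% and 21.2%, against 9.66% to 14.9% in replicates 1 and 3 of the same lines. In shAjuba1 replicate 2 also had the largest mitochondrial share (16.2%), but there YAP1 and WWTR1 were highest in it. ShScrambled replicate 2 had the larger share (17.2% against 15.4%) and the lower YAP1 (305.4 against 324.9 RPM) and WWTR1 (63.6 against 65.6 RPM). Parental replicate 2 had the smaller share (9.93% against 10.4%), with YAP1 at 350.1 against 351.4 RPM and WWTR1 at 63.8 against 62.3 RPM. With mitochondrial genes left out of the counts, the log2 fold change of WWTR1 in Ajuba OE was 0.44 (adjusted p = 0.238 in edgeR's test). This fit was scaled by TMM factors like the others and was no test of a link to that share. The TMM factors of Ajuba OE replicates 1 to 3 were 0.960, 0.939 and 0.952. Without mitochondrial counts in the totals, YAP1 in these samples was at 447.9, 403.9 and 452.5 RPM, and WWTR1 at 97.0, 73.8 and 100.7 RPM. Whether the mitochondrial share bears on either gene was not tested.

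**Figure D3:**
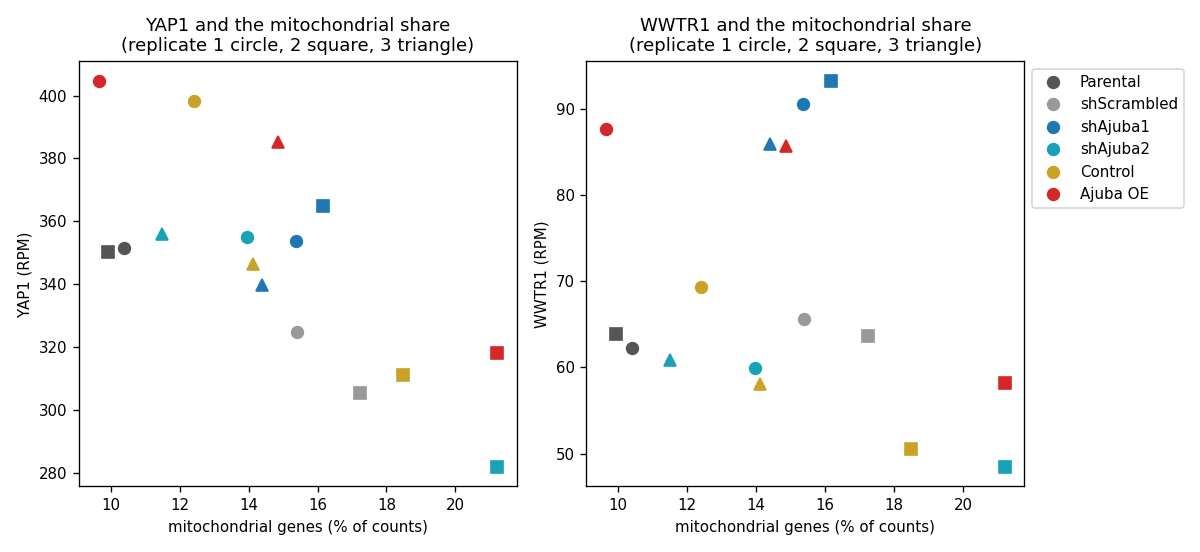
YAP1 and WWTR1 (RPM, y axes, not from 0) against the share of counts on mitochondrial genes (%, x axes) in the 16 samples. Colors are lines and shapes are replicate numbers, and the 3 samples with the largest shares, at 18.5% and 21.2%, are replicate 2 of Control, shAjuba2 and Ajuba OE.

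The mix of the 4 TEAD genes shifted more than their sum. As RPM per kb, Parental had a mean sum of 93.6, shScrambled 107.1, shAjuba1 89.0, shAjuba2 106.4, Control 85.8 and Ajuba OE 83.4. TEAD1 made up 52.7% ± 2.18 (SD, n = 2) of that sum in Parental, 64.8% ± 0.442 (n = 2) in shScrambled and 41.4% ± 1.66 (n = 3) in shAjuba1. Its share in shAjuba2 was 58.3% ± 3.37, in Control 57.7% ± 2.21 and in Ajuba OE 62.0% ± 2.20 (n = 3 each). TEAD4 took 35.6% ± 1.88 in shAjuba1, against 17.7% ± 0.651 in shScrambled and 26.8% ± 1.92 in Parental. In shAjuba1 replicate 3 the shares of TEAD1 and TEAD4 were 39.6% and 37.2%, the closest in the series. All 3 shAjuba1 samples lay below every other sample in TEAD1 share and above every other sample in TEAD4 share.

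The ratio of TEAD1 to TEAD4 per kb was 1.17 ± 0.108 in shAjuba1, 1.97 ± 0.222 in Parental and 3.67 ± 0.110 in shScrambled. ShAjuba2 had a ratio of 2.64 ± 0.514, Control one of 2.38 ± 0.248 and Ajuba OE one of 2.96 ± 0.339, where Ajuba OE replicate 1 (2.95), replicate 2 (2.63) and replicate 3 (3.31) were all above the highest Control sample (2.60). With transcript lengths in place of merged exons, TEAD4 reached 39.3% in shAjuba1 and TEAD1 39.0%, so which of the 2 came first there depended on the length used. The ratio of YAP1 to WWTR1 per kb was 5.19 ± 0.0365 in shAjuba1, below that of every other sample. It was 6.45 ± 0.141 in shScrambled, 7.36 ± 0.147 in Parental, and 7.76 ± 0.0729 in shAjuba2. Control had 7.89 ± 0.277 and Ajuba OE 6.44 ± 0.707.

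**Figure D4:**
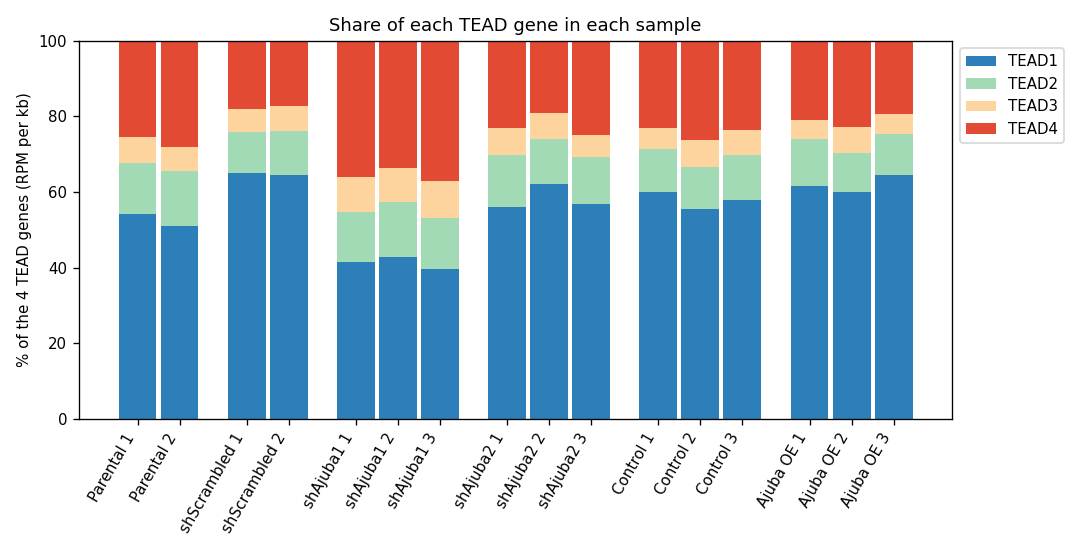
Share (%, y axis) of each TEAD gene in the sum of the 4, on the scale of RPM per kb of merged exons, with 1 bar per sample. TEAD1 holds 39.6% to 42.9% in shAjuba1 and 51.1% to 65.1% in the other samples.

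Across the 16 samples Pearson's r of log2 CPM (counts scaled to equal totals with TMM factors) was -0.79 for TEAD1 with TEAD4, 0.71 for YAP1 with WWTR1, 0.73 for TEAD3 with TEAD4 and -0.80 for TEAD4 with VGLL4. These are descriptions over samples that share lines and libraries. The genes most like each member were taken as those with the highest r among 14964 protein-coding genes. They were NDUFAF4, APPL1 and IPO7 for YAP1 (highest r 0.97) and MTPAP, DDX21 and MED28 for WWTR1 (0.95). For TEAD1 they were ANKRD28, AKAP12 and HERC6 (0.96), for TEAD2 KDM5B, MGAT4A and GRN (0.91), for TEAD3 IGDCC4, GALNT9 and PYROXD2 (0.95), and for TEAD4 SNX8 and A4GALT (0.97). VGLL4 was closest to MAST4, TMTC2 and KLF6 (0.93) and VGLL3 to IGFL1, CCL22 and TARS2 (0.82).

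**Figure D5:**
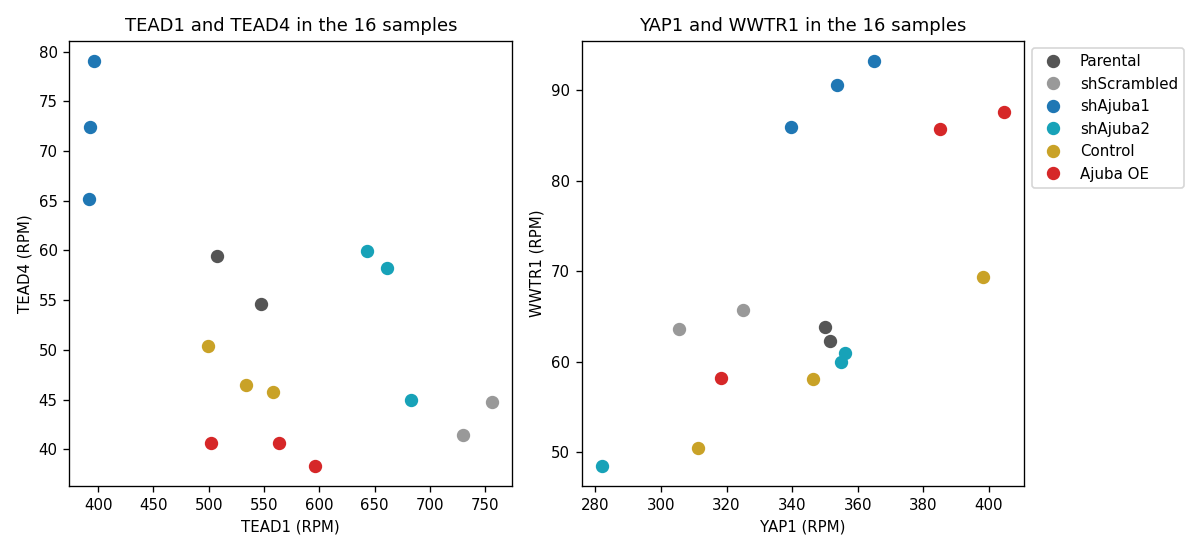
TEAD4 against TEAD1 (left) and WWTR1 against YAP1 (right), both axes in RPM and not from 0, with 1 point per sample colored by line. The shAjuba1 samples lie at the low end of TEAD1 and the high end of TEAD4, and Pearson's r of log2 CPM over the 16 samples is -0.79 on the left and 0.71 on the right.

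The genes around the members in the pathway were read from 3 lists. Of 19 Hippo kinases and upstream genes, 12 were DEG in shAjuba1 against shScrambled (38.4% of all genes), 6 higher (18.2%) and 6 lower (20.2%). AMOTL1, an angiomotin that binds YAP, rose by 2.10 on the log2 scale (adjusted p = 1.34e-08) and WWC1, a scaffold of the kinases, by 0.97 (adjusted p = 1.65e-06). MOB1B, a coactivator of LATS kinases, fell by 1.36 (adjusted p = 1.04e-06) and SAV1, the partner of the upstream kinases, by 0.58 (adjusted p = 0.000112). The median of the list was -0.031, beside -0.0065 over all genes. In shAjuba2 2 of the 19 were DEG, both higher (3.19% of all genes), AMOTL1 at 2.48 (adjusted p = 0.00041) and FRMD6 at 0.70 (adjusted p = 0.0315), and the median was 0.06, beside -0.0050. AMOTL1 had a log2 fold change of -1.22 in shScrambled against Parental (adjusted p = 6.19e-10). In Ajuba OE 5 of the 19 were DEG, all lower (3.03% of all genes), with AMOTL1 at -4.23 (adjusted p = 0.000135), FRMD6 at -2.03 (adjusted p = 0.000324), PTPN14 at -1.02 (adjusted p = 0.00139) and AMOTL2 at -0.83 (adjusted p = 0.00294), and the median was -0.19, beside -0.015.

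The second list holds 11 genes for the retention of YAP and TAZ in the cytoplasm and for their turnover. In shAjuba1 6 of them were DEG (38.4% of all genes), 3 in each direction, among them the kinase gene CSNK1D at 0.59 (adjusted p = 0.000597) and the adaptor genes YWHAG at 0.43 (adjusted p = 0.00145) and YWHAZ at -0.48 (adjusted p = 0.00262). The median was 0.15, beside -0.0065 over all genes. In shAjuba2 0 of 11 passed edgeR's test (7.63% of all genes) and 2 DESeq2's (5.54% of all genes). In edgeR's 2 had an unadjusted p under 0.05, beside 5882 of all 22446 genes. CSNK1D was at 0.84 (adjusted p = 0.0581 in edgeR's test), and the median was -0.19. In Ajuba OE SFN alone passed, at 0.75 (adjusted p = 0.0435, with 2.39% of all genes called higher), with a median of 0.08.

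Of 22 genes known as targets of YAP and TAZ, 14 of the 21 tested were DEG in shAjuba1 (38.4% of all genes), 7 in each direction. NUAK2 rose by 1.87 (adjusted p = 1.08e-07), while CCDC80 fell by 1.50 (adjusted p = 5.82e-07), NT5E by 1.12 (adjusted p = 2.64e-06) and AXL by 0.84 (adjusted p = 3.65e-06). The median was -0.12, beside -0.0065. In shAjuba2 5 of 22 passed, 2 higher (3.19% of all genes) and 3 lower (4.44%), with IGFBP3 at -1.46 (adjusted p = 0.00325), RBMS3 at 2.62 (adjusted p = 0.00371), F3 at 0.71 (adjusted p = 0.0141) and CCN2, a secreted matrix protein, at -0.56 (adjusted p = 0.0329), and the median was 0.18. In Ajuba OE 11 of 22 passed, all lower, beside 3.03% of all genes called lower. NT5E was at -1.51 (adjusted p = 0.000328), CCN1 at -1.47 (adjusted p = 0.00115), CCN2 at -1.43 (adjusted p = 0.00129) and PTPN14 at -1.02, and the median was -0.47, beside -0.015 over all genes. Without shAjuba2 replicate 2, the DEG in shAjuba2 were 6 of the 19 Hippo genes (4 higher), 2 of the 11 genes of retention and turnover (both higher) and 11 of the 22 targets (6 higher), beside 22.7% of all genes (10.9% higher). With replicates 1 and 3 only, Ajuba OE had 12 of 21 targets called, 11 of them lower, and 7 of 19 Hippo genes, 6 of them lower, beside 8.18% of all genes (3.97% lower). Against Parental, shAjuba1 had 14 of 22 targets called, 9 of them higher, beside 38.1% of all genes (17.6% higher). AMOTL2, LATS2 and PTPN14 stand in both this list and that of the Hippo genes.

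In shScrambled against Parental 12 of the 22 target genes were DEG (30.7% of all genes), 10 of them higher (15% of all genes), with NT5E at 1.11 (adjusted p = 9.68e-10) and AXL at 0.62 (adjusted p = 1.52e-06), and the median was 0.19, beside 0.028. In Control against Parental 0 of 22 passed edgeR's or DESeq2's test, beside 0.37% and 1.16% of all genes. In edgeR's 7 had an unadjusted p under 0.05, beside 4219 of all 21644 genes. The median was -0.011, beside 0.035. Of the LIM genes related to AJUBA, WTIP rose by 0.91 in shAjuba1 (adjusted p = 0.000364) and fell by 0.71 in Ajuba OE (adjusted p = 0.0475), while in shAjuba2 it was at 0.55 (adjusted p = 0.0582). LIMD1 passed in none of the 3 comparisons, with log2 fold changes of 0.18 (shAjuba1), 0.24 (shAjuba2) and 0.11 (Ajuba OE). By RT-qPCR the paper reports no change of LIMD1 or WTIP with the knockdown, which for WTIP in shAjuba1 differs from the value here.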

How the data were processed

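The authors prepared stranded mRNA libraries, sequenced paired reads of 50 bases, aligned them to hg38 with HISAT2 and counted them with featureCounts. The table they deposited holds unnormalized counts, 1 per gene and sample. The strand option, annotation release and versions are not given in the sources used here. All 16 samples were used, grouped by the line in their labels; the labels speak of triplicates, but Parental and shScrambled have 2 samples.

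Symbols, positions and exons came from GENCODE release 44 for hg38, where 56434 of the 66023 genes were found, holding 99.8% of the counts, and promoter windows from RefSeq (GRCh38.p14). RPM was the count over the column total. Tests used R 4.3.3 with edgeR 4.0.16 (filterByExpr, TMM, quasi-likelihood test, two-sided, samples of the lines compared only) and Benjamini-Hochberg adjustment over all genes tested; standard errors were derived from the log2 fold change and F, as its size over the square root of F. Log2 CPM for correlations used a prior count of 2. The alternatives were DESeq2 1.42.0, its size factors, every gene with at least 1 count, all 16 samples in 1 fit, a replicate block, Parental as the control and each replicate left out. Figures used Python 3.11.15 and matplotlib 3.10.9. The test was checked on simulated counts.

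The members and lists were chosen with earlier results of these data known. All 8 members are described; from each list up to 4 DEG with the smallest p per comparison may be named, and the related vestigial-like and LIM genes in full; CSNK1D in shAjuba2 was chosen after its values were seen. The 3 protein-coding genes with the highest r are named for each member, except 1 that is not reported here.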

Additional observations from a re-analysis of the deposited data

Results flagged for a closer look

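The 4 members WWTR1, TEAD1, TEAD4 and VGLL3 were flagged because their log2 fold change differed between the 2 hairpin lines in edgeR's direct test of shAjuba1 against shAjuba2, with Benjamini-Hochberg adjustment. WWTR1 was 0.72 higher in shAjuba1 (all 3 shAjuba1 samples above all 3 shAjuba2 samples, adjusted p = 0.00263). TEAD1 had a difference of -0.70 (all 3 shAjuba1 samples below, adjusted p = 0.00265). TEAD4 had a difference of 0.46 (all 3 above, adjusted p = 0.0358) and VGLL3 one of 1.47 (all 3 above, adjusted p = 0.0422), on 5 to 17 counts per sample. The calls of TEAD4 and VGLL3 were each lost in 4 of the 6 fits that left out 1 sample. That of TEAD4 was also lost with the replicate block (adjusted p = 0.0515 in edgeR's test) and that of VGLL3 in DESeq2's test (adjusted p = 0.0805).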

How the results depend on the processing

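Under the alternatives other than leaving out 1 replicate, 243 values for single genes kept their direction and side of the threshold. Another 14 changed sign, 8 newly passed and 10 no longer passed. Of Control against Parental these values cover TEAD2 and VGLL3 only. Over all 10 alternatives of that comparison, leave-outs included, YAP1 ran from -0.085 to 0.086 on the log2 scale. WWTR1 ran from -0.21 to 0.013 and TEAD1 from -0.032 to 0.049. Of the counts 67 stayed within 1.5 times and 16 did not. With Parental as the control, the log2 fold changes that changed sign in shAjuba1 were those of YAP1 (-0.020), TEAD2 (-0.12) and VGLL3 (-0.53). In shAjuba2 they were those of YAP1 (-0.15), TEAD1 (0.27), TEAD4 (-0.13) and VGLL4 (0.25). Against Parental 1 member was called in shAjuba2, beside 8.14% of all genes, and 1 in Ajuba OE, beside 7.15%. TEAD2 in Ajuba OE turned to 0.013 with DESeq2's size factors, 0.020 with every gene of at least 1 count and 0.035 with DESeq2. It was 0.011 with all 16 samples in 1 fit and 0.034 with replicates 1 and 3 only. In that last fit 1 member was called, beside 8.18% of all genes. With all 16 samples in 1 fit the DEG were 3672 in shAjuba2, 2386 in Ajuba OE and 530 in Control against Parental. In shScrambled against Parental they were 1696 (1 member called, beside 7.19% of all genes). With every gene of at least 1 count they were 3210 in shAjuba2 and 1947 in Control against Parental (1 member called, beside 4.81% of all genes). With DESeq2 they were 470 in the latter. Causes were not tested.

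With the replicate block the DEG were 5377 in shAjuba2, 5140 in Ajuba OE and 318 in Control against Parental. In Ajuba OE 2 of the 7 members tested passed, beside 24.3% of all genes (14.1% higher and 10.2% lower). They were WWTR1 at 0.43 (adjusted p = 0.00112) and TEAD4 at -0.19 (adjusted p = 0.0362). In shAjuba1 the block lost TEAD3 (0.23, adjusted p = 0.0555) and VGLL3 passed (1.38, adjusted p = 0.0229), beside 42% of all genes. In shAjuba1 against shAjuba2 it lost TEAD4 (0.46, adjusted p = 0.0515), beside 13.6% of all genes called. TEAD2 in shAjuba1 turned to -0.010 and YAP1 in shAjuba2 to -0.038. Same-numbered samples of Ajuba OE and Control had deviations with r of 0.099, 0.50 and -0.049. Of these 6 samples 2 were closest to their own number in the other line. These values do not settle whether the numbers pair the samples.

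With 1 replicate left out, DEG numbered 4711 to 9695 in shAjuba1 (3 to 6 members), 182 to 4983 in shAjuba2 (0 to 1), 412 to 988 in Ajuba OE (0 to 0), 2177 to 5961 in shAjuba1 against shAjuba2 (2 to 5), 3010 to 5369 in shScrambled against Parental (2 to 3), 14 to 985 in Control against Parental (0 to 1) and 8991 to 11649 among the 6 lines (6 to 7). Over all fits that left out 1 replicate, log2 fold changes near 0 changed sign for TEAD2 in shAjuba1 (-0.013 to 0.043) and Ajuba OE (-0.068 to 0.077). In shAjuba2 those of YAP1 (-0.026 to 0.11), TEAD3 (-0.053 to 0.11) and VGLL4 (-0.032 to 0.016) changed sign. In shScrambled against Parental that of WWTR1 did (-0.0082 to 0.052). For Control against Parental only TEAD2 and VGLL3 were searched for such changes. Where 1 sample is left in a line, it is assumed to vary like the other line. In the leave-out fits with at least 2 samples in each line, 31.4% to 45.4% of all genes were called in shAjuba1. This share was 2.24% to 22.7% in shAjuba2, 1.89% to 4.57% in Ajuba OE and 9.83% to 26.9% in shAjuba1 against shAjuba2. It was 0.0847% to 4.73% in Control against Parental and 38.4% to 49.7% among the 6 lines. Every leave-out fit of shScrambled against Parental had 1 sample in a line, so no share is set beside its member counts. Depth limits VGLL3 alone among the members, whose counts were 3 to 27.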
